A study of Mus musculus with 32 samples.

Results

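Retinal organoids of a mouse Mettl3 knockout line that carries a METTL3-GRBD fusion and was given dexamethasone were compared with wild-type retinal organoids at day 6 of differentiation. The members of the comparison were chosen by their labels alone. They were the 2 day 6 libraries of the fusion line with dexamethasone and the 2 day 6 libraries of the wild-type line, 4 of the 32 libraries of the study, and every gene measured was considered. The wild-type line, WT here, is called Rx:GFP, after Rax (Rx) and green fluorescent protein, and it was grown in medium with AGN at 0.1 µM, an agent the labels name only by that abbreviation. The other line is labelled WT MTL3-GRBD OE in Mettl3 KO, an overexpression of intact METTL3 joined to a domain called GRBD in cells without their own Mettl3. It received the same medium and AGN, and in addition dexamethasone (Dex), a synthetic glucocorticoid, at 10 µM. The organoids of this line with Dex are called Dex organoids below. The study also grew the fusion line without Dex and the Mettl3 KO line itself, and sampled all 4 cultures at days 0, 2, 4 and 6. The labels list Dex and AGN for days 2, 4 and 6 only, so that the day 0 libraries titled with Dex have no Dex recorded. Per the study's design text, the fusion protein was cytosolic without Dex and nuclear with it, so that the comparison with WT asks how close nuclear METTL3 brought the organoids to WT. The labels give all libraries of both groups the same batch date. The sources used here give no Dex-treated organoids without the fusion, so that the line, the overexpressed protein and Dex itself cannot be told apart in this comparison. The labels describe the 2 libraries of a group as separate rounds of library preparation and sequencing and name no separate cultures, so that the p-values measure only the spread between such libraries, which may be technical.

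METTL3 is the catalytic subunit of the nuclear enzyme that writes N6-methyladenosine (m6A), the most common internal modification of messenger RNA, which affects how long a transcript lasts and how it is translated. In the embryo, the eye begins as the eye field, a patch of anterior neural plate that expresses the transcription factors Rax, Six3, Pax6 and Lhx2. It bulges out as the optic vesicle, which is then divided into neural retina, retinal pigment epithelium and optic stalk. Ventral signals such as Sonic hedgehog favour the stalk and the ventral retina, BMP favours the dorsal eye, and Wnt and BMP signals favour the pigment epithelium over the neural retina.

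The depth of the 4 libraries, estimated from the steps between low values, was 40.9 and 36.4 M fragments in WT and 35.3 and 37.4 M in the Dex organoids. Values are FPKM, fragments scaled to the length of the transcript and the size of the library, and differences are Dex minus WT on a log2(FPKM + 1) scale with their standard error (SE) from limma. On this scale the change of a gene with low FPKM comes out smaller than its fold. Reads were mapped to genes by a procedure whose use of strand is not given in the sources used here. Exons of Rax, Six3, Six6, Otx2, Emx2, Mest, Mettl3, Tbx3, Bmp4, Wnt7b, Id4, Gli1, Col4a1, Mab21l1 and Mab21l2 overlap those of a gene on the other strand. The same holds for Fzd5, Trpm1, Axin2, Rspo3, Hes5, Ccnd1, Pou5f1, Sox17 and Cdkn1c, among others. Reads of these pairs could be shared. The label of the tissue was checked against 5 defining markers of the eye field and optic vesicle, Rax, Six3, Six6, Lhx2 and Pax6. All 5 were present in the Dex organoids, with summed levels of 416 and 417 FPKM against 681 and 647 in WT, 186 and 182 in the fusion line without Dex and 117 and 118 in the KO. Mettl3 itself (chr14:52294841-52305128, minus strand) was read at 36.3 and 35.1 FPKM in WT and 44.5 and 48.8 in Dex organoids, a difference of 0.37 ± 0.06 (adjusted p = 2.99e-05). It was higher than in WT at day 0 as well, at 75.1 and 75.01 FPKM in the cultures titled with Dex against 36.8 and 33.2 in WT (limma, log2 difference 1.08, adjusted p = 5.48e-11). At day 6 it was read at 45.2 and 51.9 FPKM in the fusion line without Dex. It was also read at 37.9 and 37.3 FPKM in the KO, so that a value per gene does not show the deletion, nor how much of it comes from the fusion. Reads were RNA of whole organoids, in which fewer cells of a type and less RNA per cell cannot be told apart.

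Of 16276 genes tested, 9987 were called different between Dex and WT organoids at an adjusted p under 0.05, which is 61.4% of all genes tested. Of these, 4753 were higher in Dex organoids (29.2%) and 5234 lower (32.2%), and the median difference over all genes was -0.02. These shares of all genes tested are the background for the counts of every list below. Most calls were small. A difference of at least 1 on the log2 scale was called for 961 genes (5.90%), 508 of them higher (3.12%) and 453 lower (2.78%), while for 8450 genes, 51.9% of those tested, the 95% interval of the difference lay within 0.5 of 0 on both sides. The 12 largest rises by the naming rule were Tbx2, Trpm1, C1qtnf5, Wfdc1, Slc38a8, Rspo1, Foxe3, Rpgrip1, Msx2, Rspo2, Dmrt3 and Inka1, with differences between 2.86 and 4.14. The 12 largest falls were Dlk1, Vax1, Gm21748, Pga5, Vwc2, Srgn, Fzd5, Hesx1, Ctsh, Six6, Kdr and Pax2, with differences between -3.14 and -6.02. Transcription factors of the eye and forebrain stood on both sides, Tbx2, Foxe3, Msx2 and Dmrt3 among the rises and Vax1, Hesx1, Six6 and Pax2 among the falls.

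**Figure D1:**
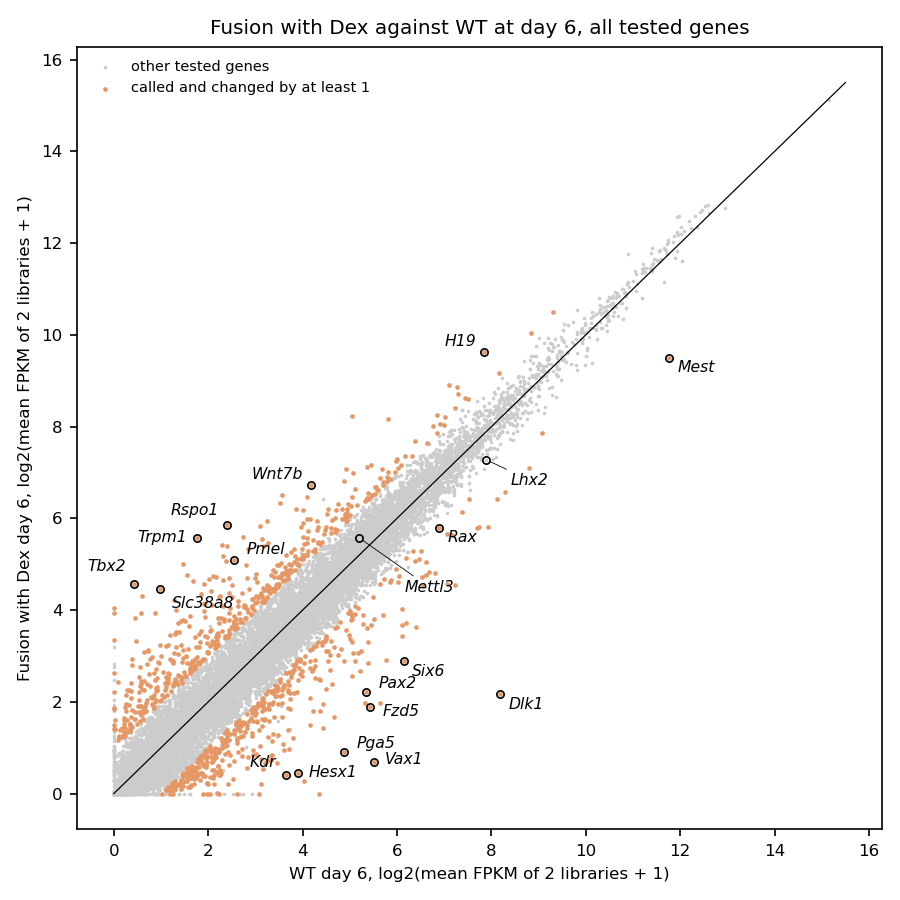
Mean level of each of 16276 tested genes in WT (horizontal axis) and Dex organoids (vertical axis) at day 6, both as log2 of the mean FPKM of 2 libraries plus 1, with the line of equality. Orange points are the 961 genes called with a difference of at least 1. Dlk1 and Vax1 lie far below the line, Tbx2 and Trpm1 far above it, and Lhx2 and Mettl3 close to it.

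The eye field genes that define the early eye were expressed in Dex organoids, and most fell short of WT. Rax, the homeobox gene whose reporter names the line, was read at 122 and 115 FPKM in WT and 53.9 and 55.5 in Dex organoids. Both Dex libraries were below both WT libraries, at 46.3% of the WT mean, a difference of -1.10 ± 0.06 (limma, adjusted p = 1.73e-11). The fusion line without Dex stood at 0.79 and 1.03 and the KO at 0.28 and 0.32 FPKM, so that Rax in Dex organoids lay between these low levels and WT. Six3, a homeobox repressor that holds Wnt signalling off in the anterior brain, measured 138 and 126 FPKM in WT and 48.4 and 50.9 in Dex organoids. Its difference was -1.39 ± 0.07 (adjusted p = 2.19e-12), again without overlap. Lhx2, a LIM homeobox factor needed for the vesicle to become a cup, came closer. Its levels were 239.8 and 228 FPKM in WT and 154 and 155 in Dex organoids, or 66.1% of WT, with a difference of -0.59 ± 0.14 (adjusted p = 8.59e-04, and 0.0536 with a pseudocount of 0.1). Pax6, the paired box gene at the head of eye development, went the other way at 111 and 109 FPKM in WT and 154 and 149 in Dex organoids, a difference of 0.45 ± 0.15 (adjusted p = 0.0129). The call for Pax6 was lost with a pseudocount of 0.1 (limma, adjusted p = 0.102), without the first Dex library and without the second WT library. Its level was as high in the fusion line without Dex, at 156 and 152 FPKM. The row of the green fluorescent protein itself, the reporter of Rax, read 200.3 and 189.6 FPKM in WT and 132 and 139 in Dex organoids, a difference of -0.52 ± 0.20 (limma, adjusted p = 0.0275). The reporter lost its call with a pseudocount of 0.1 (adjusted p = 0.541), with no filter (0.0542) and when any 1 of the 4 libraries was left out.

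The other eye field and optic vesicle genes also stood on both sides of WT. Of the 14 genes of this list, all of which were tested, 9 were called lower (background 32.2%), 4 higher (background 29.2%) and Tbx3 was not called at 0.31 ± 0.16, and the median difference was -0.85 against -0.02 over all genes, or -0.14 over members with a mean of at least 5 FPKM. Six6, a homeobox gene of the retina and hypothalamus that follows the first eye field genes, was far below WT. It stood at 70.3 and 69.00 FPKM in WT, 6.66 and 6.13 in Dex organoids and 0.01 and 0.01 without Dex. Both Dex libraries were near 9.18% of WT, with a difference of -3.26 ± 0.06 (adjusted p = 3.64e-19). Fzd5 (chr1:64730558-64737751), a Wnt receptor of the optic vesicle and retina, was read at 41.9 and 42.5 FPKM in WT and 2.60 and 2.74 in Dex organoids, a difference of -3.56 ± 0.04. Outside the list, its close relative Fzd8 was lower too, at 23.8 and 23.6 against 4.22 and 4.17 FPKM. Hesx1, a homeobox repressor of the anterior neural plate, measured 13.7 and 14.1 FPKM in WT and 0.47 and 0.26 in Dex organoids, close to its level without Dex (0.32 and 0.08). Hes1, a Notch effector that keeps retinal progenitors dividing, was at 46.2% of WT, with 190.4 and 174 against 83.7 and 84.7 FPKM, and Mab21l1, needed for lens and eye growth, was at 31.4%, with 37.7 and 38.1 against 12.01 and 11.8 FPKM. Above WT were Otx2, an activator of forebrain and pigment cell genes, with 105 and 104 against 138 and 137 FPKM, and Mab21l2, a relative of Mab21l1, with 14.5 and 15.7 against 70.6 and 71.9 FPKM. Sfrp1, a secreted Wnt inhibitor on chromosome 8, was also above WT, at 49.2 and 47.7 against 90.2 and 87.8 FPKM.

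The neural retina list, which shares Six6 and Pax6 with the eye field list, had 12 of its 16 genes tested, of which 8 were called lower and 4 higher, with a median difference of -0.81, which was -0.18 over members with a mean of at least 5 FPKM and -0.30 with no filter. Fgf9, a growth factor of the neural retina, fell from 2.88 and 2.95 FPKM to 0.24 and 0.11. Ccnd1, the D-type cyclin of retinal progenitors, was at 44.5% of WT, with 34.6 and 35.3 against 15.7 and 15.4 FPKM. The genes above WT, apart from Pax6, were Hes5, a Notch target of neural progenitors, Zfp503, a zinc finger gene, and Crx, a photoreceptor homeobox gene. Hes5 was read at 14.4 and 14.6 FPKM in WT and 53.1 and 57.6 in Dex organoids. Zfp503 stood at 16.3 and 15.8 against 60.8 and 64.3 FPKM, while Crx reached only 1.34 and 1.63 FPKM in Dex organoids.

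Several genes of the ventral eye and optic stalk were far below WT, while several dorsal eye genes exceeded it. Vax1 (chr19:59166187-59170056), a homeobox gene of the optic stalk and ventral forebrain, was read at 46.05 and 43.6 FPKM in WT and 0.46 and 0.78 in Dex organoids, or 1.38% of WT. The difference was -4.83 ± 0.24 (limma, adjusted p = 1.58e-12), and the fusion line without Dex (0.22 and 0.17) and the KO (0.39 and 2.26) were about as low. Vax2, its relative in the ventral retina, measured 54.3 and 52.9 FPKM in WT and 6.87 and 6.23 in Dex organoids, against 0.03 and 0.22 without Dex. Its libraries did not overlap either, with a difference of -2.86 ± 0.14 (adjusted p = 1.39e-12). Pax2, the paired box gene of the optic stalk, was at 40.1 and 38.9 FPKM in WT, 3.39 and 3.83 in Dex organoids and 0.28 and 0.32 without Dex, a difference of -3.14 ± 0.05. Aldh1a3, the enzyme that makes retinoic acid in the ventral retina, stood at 12.1 and 12.2 against 0.92 and 1.02 FPKM, a difference of -2.74 ± 0.06. Ntn1, a guidance cue made at the optic fissure and nerve head, was read at 12.4 and 13.3 FPKM in WT and 1.35 and 1.27 in Dex organoids. Its level in Dex organoids was no higher than without Dex, at 1.63 and 1.99 FPKM.

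On the dorsal side, Tbx2 (chr11:85832551-85841948), a T-box repressor of the dorsal eye, had the largest rise of all under the naming rule. It was low in WT at 0.32 and 0.37 FPKM and reached 22.2 and 23.2 FPKM in Dex organoids, while the fusion line without Dex stood at 0.46 and 0.43 and the KO at 0.90 and 0.50. Among the 4 day 6 cultures, Tbx2 was above 1 FPKM in the Dex organoids alone, with a difference from WT of 4.14 ± 0.08 (adjusted p = 4.70e-18). Tbx5, the T-box factor of the dorsal retina, was read at 0.02 and 0.01 FPKM in WT and 2.20 and 1.84 in Dex organoids, a difference of 1.57 ± 0.05, and at 0 and 0 without Dex. Bmp4, the growth factor upstream of both in the dorsal eye, measured 15.8 and 13.3 FPKM in WT and 41.3 and 27.1 in Dex organoids. Its Dex libraries lay apart from each other but above both WT libraries, with a difference of 1.15 ± 0.33 (adjusted p = 0.00471, and 0.0734 without the first Dex library). Efnb1, an ephrin that is graded toward the dorsal retina, was read at 16.9 and 16.9 against 61.3 and 62.6 FPKM. Efnb2, the other dorsal ephrin of the list, and Aldh1a1, a retinoic acid enzyme of the dorsal retina, were lower than WT, with 28.4 and 29.4 against 20.3 and 20.6 FPKM for Efnb2 and 2.53 and 2.65 against 0.81 and 0.87 for Aldh1a1. Of the 14 genes of the optic stalk and dorsoventral list 13 were tested, with 8 called lower and 4 higher. The 4 higher genes were Tbx2, Tbx5, Bmp4 and Efnb1, and Ephb3, a receptor of the ventral retina, was not called (5.80 and 5.81 against 5.38 and 5.65 FPKM, 95% interval -0.25 to 0.12).

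**Figure D2:**
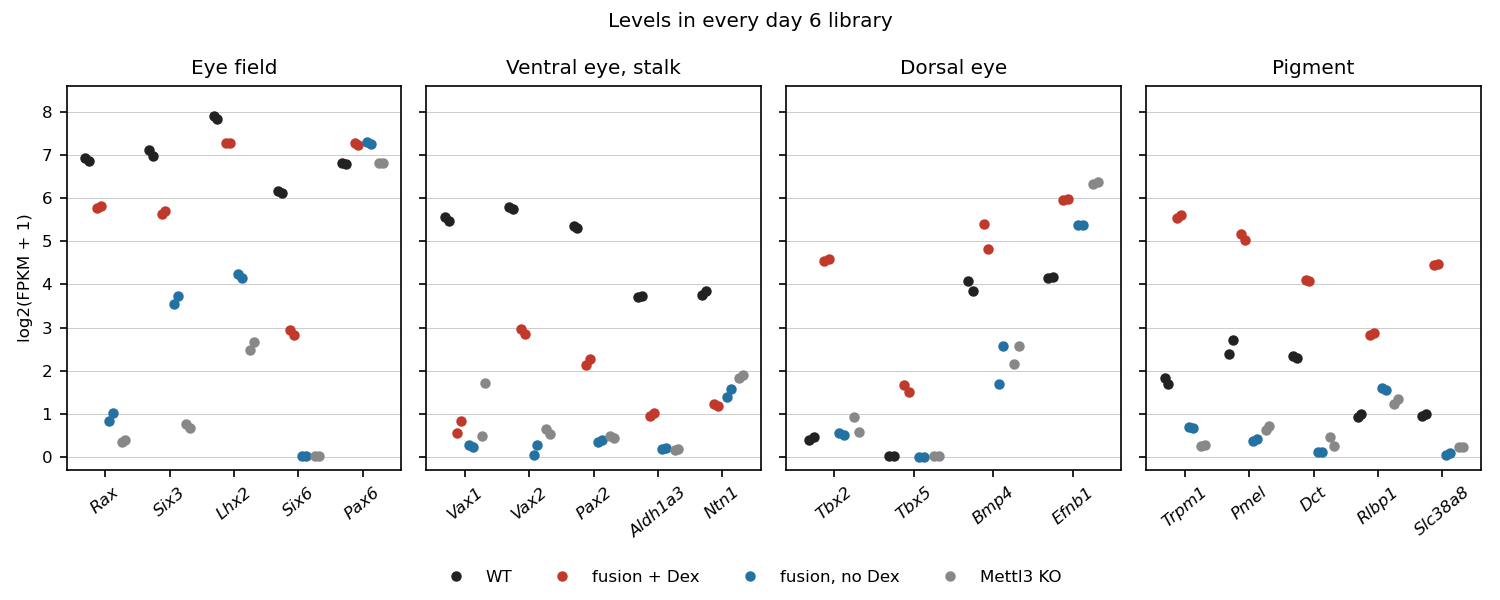
Levels of eye genes in every day 6 library, as log2(FPKM + 1), with 2 points for each of the 4 cultures in each gene's column. Ventral genes in Dex organoids (red) lie far below WT (black), while Tbx2, Tbx5 and the pigment genes shown lie above WT and above the fusion line without Dex (blue) and the KO (grey).

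Several pigment cell genes, among them Trpm1, Pmel and Dct, were higher in Dex organoids than in WT, the fusion line without Dex and the KO. Of the 22 genes of this list 11 were tested. Among them 8 were called higher and 2 lower, with a median of 1.50, and the other 11 did not reach the filter in the study. The genes that encode the pigment enzymes Tyr and Tyrp1 were among the latter. The median was 0.14 with no filter and 2.37 over members with a mean of at least 5 FPKM. The promoters of 4 rising genes are printed from RefSeq (GRCm38.p6), chosen because they hold the letters searched for, each the 250 bases before the annotated start, 5′ to 3′ on the strand of the gene. Capitals mark the letters CATGTG, or CACATG where the match is on the other strand, which form the core of the E-box bound by MITF, the master regulator of pigment cells.
Trpm1, chr7:64153585-64153834, plus strand: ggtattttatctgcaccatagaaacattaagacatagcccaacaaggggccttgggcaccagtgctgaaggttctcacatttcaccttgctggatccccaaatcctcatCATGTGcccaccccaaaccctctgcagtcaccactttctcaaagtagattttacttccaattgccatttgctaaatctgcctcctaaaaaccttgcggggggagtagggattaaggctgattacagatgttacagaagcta
Dct, chr14:118052247-118052496, minus strand: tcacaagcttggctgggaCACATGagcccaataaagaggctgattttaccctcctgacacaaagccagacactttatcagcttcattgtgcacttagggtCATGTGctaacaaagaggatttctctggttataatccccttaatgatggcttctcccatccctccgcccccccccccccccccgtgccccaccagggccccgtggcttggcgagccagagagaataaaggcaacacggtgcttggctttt
Rlbp1, chr7:79387028-79387277, minus strand: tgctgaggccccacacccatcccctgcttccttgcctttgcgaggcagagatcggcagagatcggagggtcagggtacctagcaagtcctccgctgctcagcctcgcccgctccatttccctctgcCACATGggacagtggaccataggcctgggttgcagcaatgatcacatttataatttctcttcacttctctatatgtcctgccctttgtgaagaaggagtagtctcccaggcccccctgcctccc
Serpinf1, chr11:75422624-75422873, minus strand: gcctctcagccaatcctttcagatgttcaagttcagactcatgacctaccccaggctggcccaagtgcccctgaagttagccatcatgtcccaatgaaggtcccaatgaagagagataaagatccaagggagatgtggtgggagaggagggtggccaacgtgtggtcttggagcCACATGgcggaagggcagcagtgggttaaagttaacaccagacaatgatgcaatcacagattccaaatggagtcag
The letters begin 141 bases before the start of Trpm1, 232 and 150 before that of Dct, 124 before that of Rlbp1 and 76 before that of Serpinf1. RefSeq promoters, each 300 bases with 50 of them after the start, were found for 15 of the 22 genes of the list, and 9 of the 15 held CATGTG on either strand in at least 1 promoter. The same letters were found in 14.2% of all 32851 such promoters and in at least 1 promoter of 15.9% of all 27025 genes. A match of letters is a description and does not show that a factor was bound there. Of the 9 genes, Trpm1, Dct, Rlbp1 and Serpinf1 were tested, which makes 4 of the 6 tested genes with a promoter in the table. The other 2 were Mitf, also called higher, with no match in any of 3 promoters, and Tfec, called lower, with none in 1.

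Trpm1 (chr7:64153835-64269775), a cation channel of pigment cells and retinal bipolar cells, was read at 2.56 and 2.25 FPKM in WT and 45.8 and 47.6 in Dex organoids. The fusion line without Dex was at 0.61 and 0.58 and the KO at 0.20 and 0.22, and the difference from WT was 3.81 ± 0.12 (limma, adjusted p = 3.20e-15). Pmel, the matrix protein of the pigment granule, measured 4.22 and 5.53 FPKM in WT and 34.7 and 31.5 in Dex organoids, a difference of 2.54 ± 0.16 (adjusted p = 3.75e-11), and 0.29 and 0.34 without Dex. Dct, an enzyme of melanin synthesis, was at 4.06 and 3.90 against 16.3 and 15.8 FPKM, and at 0.08 and 0.08 without Dex. Both genes were lowest without Dex and in the KO and highest in Dex organoids, without overlap between WT and Dex libraries. Rlbp1, the retinaldehyde binding protein of pigment epithelium and glia, was read at 0.89 and 0.98 against 6.12 and 6.35 FPKM. Serpinf1, the secreted factor PEDF of pigment epithelium, was read at 4.77 and 3.26 against 13.7 and 12.4 FPKM. Otx1, which acts beside Otx2 in the pigment layer, stood at 8.83 and 8.48 FPKM in WT and 42.7 and 43.5 in Dex organoids, but it was as high without Dex at 43.6 and 43.5. Slc38a8, an amino acid transporter of the eye outside the list, followed the pattern of Trpm1 with 0.94 and 0.99 FPKM in WT, 20.8 and 21.1 in Dex organoids and 0.03 and 0.06 without Dex. The regulator Mitf itself differed little, with 5.47 and 6.03 FPKM in WT and 6.67 and 6.82 in Dex organoids, a difference of 0.20 ± 0.07 (adjusted p = 0.0264) whose call was lost under 7 of 10 alternatives. It was at 0.69 and 0.93 FPKM without Dex. Tfec, a relative of Mitf, and Ttr, a thyroid hormone carrier of pigment epithelium and yolk sac, were below WT, Ttr at 3.79 and 3.78 against 0.27 and 0.37 FPKM. C1qtnf5, a secreted protein of the pigment epithelium, was read at 0.50 and 0.53 FPKM in WT and 17.8 and 19.7 in Dex organoids. It was also above WT without Dex (3.11 and 2.87) and in the KO (8.21 and 8.32). Rpgrip1, a protein of the photoreceptor cilium, was at 0.52 and 0.43 against 11.7 and 16.8 FPKM. At day 0 Rpgrip1 was above WT already, at 7.39 and 8.50 FPKM in the cultures titled with Dex and 36.6 and 36.0 in those titled without. The labels list no Dex for either of these groups at day 0. WT stood at 1.38 and 1.38 FPKM on that day. Exons of C1qtnf5 overlap those of Mfrp on the same strand, exons of Rpgrip1 overlap Supt16, and exons of Pmel overlap Cdk2 and Dgka, so that reads of these pairs could be shared between rows.

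Several genes of the dorsal forebrain were above WT. Emx2, a homeobox gene of the dorsal telencephalon, was read at 13.6 and 18.3 FPKM in WT and 88.1 and 86.9 in Dex organoids, with 72.4 and 72.4 without Dex and 8.22 and 10.4 in the KO. Fezf2, a zinc finger gene of the anterior forebrain, stood at 39.6 and 40.3 against 135 and 139 FPKM, and Dmrt3, a gene of the cortical hem side of the cortex, at 10.9 and 10.8 against 87.9 and 93.05. These genes were also above WT in the fusion line without Dex, at a mean of 72.4 FPKM for Emx2, 82.7 for Fezf2 and 88.04 for Dmrt3. Of the 16 genes of the telencephalon list 13 were tested, 9 were called higher and 3 lower, and the median was 1.04, or 0.56 with no filter and 1.57 with a pseudocount of 0.1. Six3 and Eomes were among the lower genes. The diencephalon and hypothalamus list had 7 higher and 4 lower calls among 11 tested of 16, with Barhl2, a gene of the dorsal diencephalon, higher (1.50 and 1.63 against 7.30 and 7.06 FPKM) and Tcf7l2, a Wnt effector of the thalamus, lower (24.3 and 24.1 against 8.40 and 8.03 FPKM).

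Many ligands and targets of the Wnt and BMP pathways, signals that the dorsal midline of the brain is known for, were higher in Dex organoids. The Wnt list held 34 genes, 32 of them tested, with 20 called higher, 9 lower and a median of 0.76. Among the ligands, Wnt7b measured 17.4 and 16.8 FPKM in WT against 105 and 103 in Dex organoids, Wnt8b 7.96 and 7.70 against 47.1 and 44.00, and Wnt1 1.60 and 1.36 against 15.1 and 15.1. Rspo1, Rspo2 and Rspo3, R-spondins that strengthen Wnt signals, were also above WT. Rspo1 (chr4:124986430-125009099) was read at 4.26 and 4.28 FPKM in WT and 57.4 and 56.1 in Dex organoids, a difference of 3.45 ± 0.11 (limma, adjusted p = 2.36e-15). Its level was as high without Dex, at 56.8 and 56.0 FPKM, and stood at 49.5 and 48.9 in the KO. Rspo2 was at 2.25 and 2.20 against 23.97 and 23.8 FPKM, and Rspo3 at 3.99 and 3.97 against 35.6 and 34.5. The Dex libraries did not overlap the WT libraries for any of these 3 genes. Among direct targets of the pathway, Axin2 measured 6.06 and 5.92 FPKM in WT against 29.7 and 31.3 in Dex organoids, and Sp5 2.85 and 2.66 against 14.3 and 15.2. The fusion line without Dex was higher still for Axin2 (43.5 and 43.95), Sp5 (19.00 and 19.5), Rspo2 (48.5 and 47.9) and Rspo3 (84.5 and 82.96), so that these 4 genes lay between that culture and WT. Lower than WT among receptors and inhibitors were Fzd5 and Fzd8, given above, and Sfrp5, a secreted inhibitor.

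In the BMP list, 20 of 21 genes were tested, 15 were called higher and 5 lower, and the median was 0.88. The Id genes, immediate targets that hold back differentiation, were higher for 3 of the 4 members tested. Id3 was read at 156 and 156 FPKM in WT and 414 and 422 in Dex organoids, and Id1 at 61.02 and 61.9 against 125 and 128. Id4 was at 7.70 and 7.31 against 55.8 and 56.2 FPKM, and was lower in the fusion line without Dex (13.3 and 13.03) and the KO (1.78 and 1.92) than in Dex organoids. The fourth, Id2, was lower. Msx1 and Msx2, homeobox targets of BMP at the dorsal midline, were higher too. Msx2 stood at 0.99 and 0.64 FPKM in WT and 14.6 and 14.1 in Dex organoids, a difference of 3.09 ± 0.09 (adjusted p = 4.59e-16). Among inhibitors, Nog was higher at 3.04 and 3.29 against 21.1 and 19.8 FPKM, while Grem1 and Fst were lower, Grem1 at 7.66 and 7.65 FPKM in WT against 0.14 and 0.17 in Dex organoids. The receptor Bmpr1b was also lower, at 4.42 and 4.61 against 0.83 and 0.78 FPKM.

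Sonic hedgehog itself did not reach the filter. Of the 11 hedgehog genes tested of 15, 6 were called higher and 5 lower, with a median of 0.10, which was -0.29 with no filter and 0.30 at a mean of at least 5 FPKM. Gli1, a direct target of the pathway, was lower at 3.65 and 3.73 FPKM in WT against 0.93 and 0.91 in Dex organoids, while the coreceptors Gas1, Boc and Cdon were among the higher genes. FGF ligands and feedback inhibitors of the ERK cascade, which report its activity, were mostly lower, with 18 of 22 tested genes called lower, 3 higher and a median of -0.70. Spry2, a feedback inhibitor, was at 11.9 and 11.8 against 2.62 and 2.61 FPKM, and Etv5, a target of FGF signalling, at 10.9 and 11.4 against 3.94 and 4.01. The 3 higher genes were the receptors Fgfr1, Fgfr2 and Fgfr3. The retinoic acid list had 14 of 18 genes tested, 8 lower and 4 higher, with a median of -0.38, which ran from -1.01 with a pseudocount of 0.1 to -0.02 at a mean of at least 5 FPKM. Cyp26a1, which degrades retinoic acid and is its target, was read at 11.5 and 10.8 FPKM in WT and 0.74 and 1.09 in Dex organoids, Crabp1, a binding protein, was lower at 449.8 and 435 against 135 and 139, and Crabp2, its relative, higher at 640.2 and 616 against 1437 and 1444. The Notch list had 17 of 18 genes tested, with 12 higher, 3 lower and a median of 0.60, and Hes1 was the largest of the falls.

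Several genes of the midbrain, neural crest and neurons were above WT in Dex organoids and higher still in the fusion line without Dex. Irx1, a homeobox gene of the midbrain and hindbrain, was read at 2.25 and 1.81 FPKM in WT, 11.2 and 11.98 in Dex organoids, 40.9 and 43.1 without Dex and 149 and 148 in the KO. Dmbx1, a midbrain homeobox gene, followed the same order with 0.29, 3.74, 14.1 and 50.9 FPKM as means. Other genes of the midbrain and hindbrain list were lower than WT, En2 standing at 1.86 and 2.13 FPKM in WT and 0.29 and 0.42 in Dex organoids. Of the 5 defining markers of this region, En1, En2, Pax2 and Pax5 were lower than WT and Irx1 higher. Their summed level was 45.5 and 44.3 FPKM in WT and 15.4 and 16.6 in Dex organoids, most of it Pax2 in WT, which is also the optic stalk gene given above. Without Pax2 the sums were 5.41 and 5.35 in WT against 11.99 and 12.82 in Dex organoids, most of it Irx1 in the latter. The 18 tested of 21 genes of the list split into 9 higher, 7 lower and 2 not called. Of the 21 neural crest and neural border genes, all tested, 16 were called higher and 3 lower, with a median of 0.88, or 0.41 at a mean of at least 5 FPKM and 1.39 with a pseudocount of 0.1. Sox10, the defining factor of migrating crest, measured 0.51 and 0.59 FPKM in WT, 7.03 and 7.93 in Dex organoids and 18.2 and 18.95 without Dex. Pax3, which is also a gene of the dorsal neural tube, stood at 0.61 and 0.50 FPKM in WT, 3.82 and 3.79 in Dex organoids and 19.3 and 19.6 without Dex. The 3 defining markers of neural crest, Sox10, Foxd3 and Pax3, summed to 2.06 and 1.85 FPKM in WT, 13.9 and 14.9 in Dex organoids and 45.5 and 46.6 without Dex. Crest cells also express several genes of the pigment list, and the part of this difference in the pigment genes was not tested.

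Of the 20 neuronal genes tested of 22, 15 were higher, 2 lower and 3 not called, with a median of 0.66, or 1.08 with a pseudocount of 0.1. Tubb3, the tubulin of young neurons on chromosome 8, was read at 29.5 and 28.9 FPKM in WT, 134 and 133 in Dex organoids and 211 and 213 without Dex, a difference from WT of 2.16 ± 0.03 (adjusted p = 1.07e-20). Gap43, a growth cone protein, stood at 4.49 and 3.90 against 32.4 and 33.05 FPKM. Stmn2 and Ina, genes of neurites and neurofilaments, were the 2 lower genes, Stmn2 at 11.95 and 10.6 against 6.99 and 6.72 FPKM. General neural progenitor genes had a median of 0.33. Sox1, an early neural marker on chromosome 8, was read at 47.2 and 45.7 FPKM in WT and 45.8 and 45.8 in Dex organoids, with an interval of the difference from -0.14 to 0.10, and Sox2 at 197 and 196 against 175 and 170.4. In the same list, the intermediate filament gene Vim and the fatty acid binding protein gene Fabp7, both of radial glia, were above WT, Vim at 152 and 155 against 463 and 471 FPKM and Fabp7 at 13.6 and 13.6 against 73.8 and 72.4. Of these 16 genes 9 were called higher, 4 lower and 3 not called. For 6 of the 16 the interval lay within 0.5 of 0, beside 51.9% of all genes tested.

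Genes of stem cells and of yolk sac endoderm were lower in Dex organoids. All but 1 of the 22 pluripotency genes were called lower, with a median of -1.12, and none higher. The exception was Dppa3, at 5.88 and 4.46 FPKM in WT and 4.61 and 5.31 in Dex organoids. Pou5f1, the stem cell factor Oct4, was read at 37.6 and 38.2 FPKM in WT, 14.8 and 12.8 in Dex organoids and 13.6 and 12.1 without Dex, a difference from WT of -1.40 ± 0.05 (limma, adjusted p = 2.46e-14). Lin28a, an RNA binding protein of early embryonic cells, stood at 165 and 166 against 69.6 and 69.2 FPKM. The 4 stem cell markers Pou5f1, Nanog, Zfp42 and Esrrb summed to 71.2 and 71.8 FPKM in WT, 25.1 and 23.2 in Dex organoids and 28.5 and 26.7 without Dex, so that WT was the culture that stood apart.

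The extraembryonic endoderm list, genes of the yolk sac lineages, was higher in WT. Of 20 tested of 21 genes, 19 were called lower, none higher, and the median was -1.79. Sox17, an endoderm factor, was read at 20.9 and 20.05 FPKM in WT and 2.92 and 2.85 in Dex organoids, against 0.16 and 0.38 without Dex. Col4a1 and Lama1, basement membrane proteins that these cells secrete in quantity, were lower too, Col4a1 at 147 and 151 FPKM in WT against 22.3 and 22.5 in Dex organoids and Lama1 at 41.5 and 39.8 against 6.27 and 6.22. Afp was read at 2.76 and 3.05 FPKM in WT and listed at 0 in both Dex libraries. The 4 defining markers Sox17, Gata4, Gata6 and Afp summed to 39.8 and 39.0 FPKM in WT, 3.85 and 3.99 in Dex organoids and 0.34 and 0.55 without Dex. Gata4 was lower at day 0 already, with 4.05 and 3.60 FPKM in WT and 0.75 and 0.94 in the cultures titled with Dex. No Dex is listed for these on that day. Srgn, a proteoglycan of secretory granules, measured 50.2 and 48.2 FPKM in WT against 2.87 and 2.93 in Dex organoids, Ctsh, a lysosomal protease, 37.5 and 40.3 against 3.31 and 2.52, and Pga5, a pepsinogen, 27.4 and 29.8 against 0.97 and 0.74. Kdr, the VEGF receptor of vessels that is also expressed by retinal progenitors, was read at 11.7 and 11.4 against 0.30 and 0.34 FPKM. At day 4, Kdr was still at 0.03 and 0.09 FPKM in WT. The part of the endoderm marker difference in these values was not tested. Of 19 tested of 24 surface ectoderm, lens and epithelial genes, 13 were lower and 4 higher, with Cdh1 at 9.77 and 9.48 against 3.44 and 3.26 FPKM, while the surface ectoderm markers Krt5, Krt14 and Trp63 together did not exceed 0.04 FPKM in any WT or Dex library.

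Imprinted genes included Dlk1, the largest fall under the naming rule. Dlk1 (chr12:109452823-109463336), a paternally expressed growth regulator that resembles a Notch ligand, was read at 295 and 284 FPKM in WT and 3.59 and 3.36 in Dex organoids. The fusion line without Dex (1.75 and 1.63) and the KO (1.77 and 1.62) were lower still, and the difference from WT was -6.02 ± 0.12 (limma, adjusted p = 3.29e-18). Its neighbours in the same imprinted cluster differed far less, Meg3 being read at 665 and 666 FPKM in WT and 720.4 and 722 in Dex organoids and Rian at 361 and 366 against 258 and 257. Mest, a paternally expressed enzyme gene, stood at 3439 and 3509 FPKM in WT and 726 and 722 in Dex organoids, a difference of -2.26 ± 0.06, and was similarly low without Dex at 834 and 864. Peg10, Igf2r and Cdkn1c, a growth-promoting retrotransposon gene, a receptor that removes IGF2 and a cell cycle inhibitor, were at 23.7%, 15.7% and 24.3% of WT. H19, a maternally expressed noncoding RNA, went the other way at 229 and 229 FPKM in WT, 802 and 765 in Dex organoids and 79.8 and 76.7 without Dex, a difference from WT of 1.77 ± 0.09 (adjusted p = 2.23e-12). Of 24 imprinted genes tested, 13 were called lower, 9 higher and 2 not called, with a median of -0.35, or -0.09 at a mean of at least 5 FPKM.

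Lists of the m6A machinery, the glucocorticoid response and general metabolism had medians near 0. The m6A list, 19 writers, erasers and readers, had 8 genes higher and 9 lower, a median of 0.02, and no gene called with a difference of at least 1. The largest were Rbm15, a writer subunit, at 5.70 and 6.00 against 10.9 and 11.2 FPKM, and Igf2bp3, a reader, at 69.2 and 68.6 against 39.5 and 38.3. Dex was in the medium of 1 of the 2 cultures, and genes of the glucocorticoid list were called in both directions. Of 19 tested of 20, 7 were called higher (background 29.2%) and 8 lower (background 32.2%), with a median of 0.07. Fkbp5, a classical target, was read at 21.1 and 21.5 FPKM in WT and 15.7 and 15.4 in Dex organoids, and Tsc22d3, another, at 19.9 and 20.6 against 20.5 and 21.5, with an interval of the difference from -0.10 to 0.20. Sgk1, a kinase gene of the same list, was higher at 9.97 and 9.66 against 21.02 and 21.4 FPKM, and as high without Dex (22.6 and 20.1). Nr3c1, the glucocorticoid receptor, was below 1 FPKM in all 4 libraries, at 0.81 and 0.95 in WT and 0.48 and 0.52 in Dex organoids. The letters AGAACA, which occur in the glucocorticoid response element, were found on either strand in the promoters of 3 of 16 list genes with a RefSeq promoter, Tsc22d3, Sgk1 and Sult1a1, and of 21.3% of all genes. The p53 target list had 8 higher and 5 lower of 18 genes, the hypoxia and glycolysis list 7 and 8 of 20, and the sterol and fatty acid list 7 and 11 of 20, with medians of 0.12, -0.02 and -0.10. Over all genes tested, 29.2% were called higher and 32.2% lower. In these lists the interval lay within 0.5 of 0 for 12, 14 and 13 genes, respectively, beside 51.9% of all genes tested. In the cell cycle list, 12 of 20 genes were lower and 5 higher, with a median of -0.24. The basement membrane and matrix list had 11 lower and 5 higher of 21 tested, with a median of -0.24, or -0.50 without the second Dex library and -0.54 at a mean of at least 5 FPKM.

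**Figure D3:**
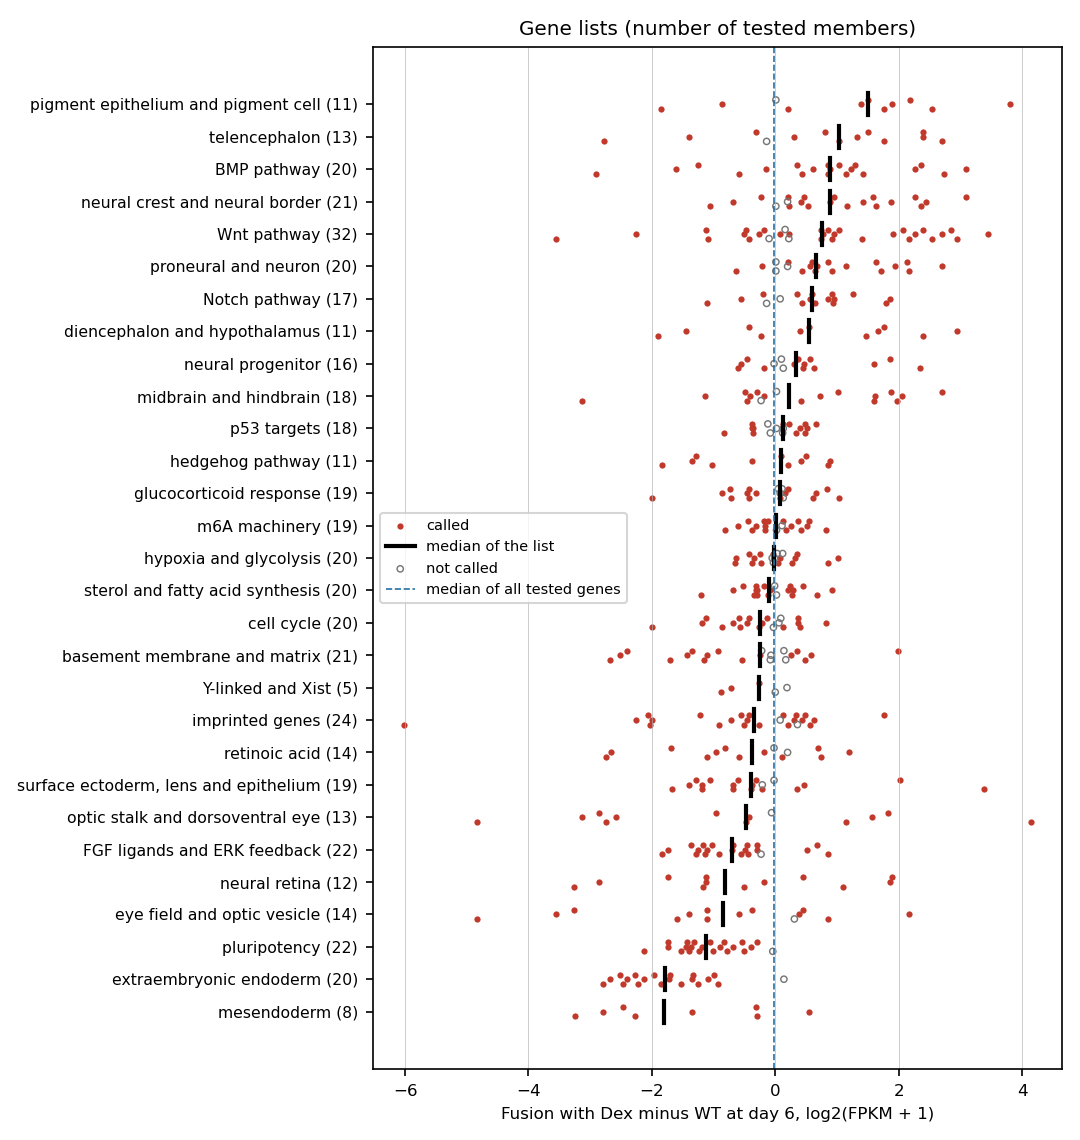
Differences between Dex and WT organoids at day 6 for each tested member of 29 gene lists, on the log2(FPKM + 1) scale, filled where called at an adjusted p under 0.05. The bar marks each list's median and the dashed line the median of all tested genes, and lists run from mesendoderm at -1.81 (-0.30 with no filter) to pigment genes at 1.50.

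By absolute level, the largest rises included Rpl13, Rps24 and mt-Nd1, and the 5 largest falls were Mest, mt-Nd4l, mt-Co1, Npm1 and Hnrnpa1. Exons of mt-Nd4l overlap mt-Nd4. Rpl13, a ribosomal protein gene, was read at 3947 and 3885 FPKM in WT and 5962 and 6113 in Dex organoids, a difference of 0.62 ± 0.05. It lies on chromosome 8, whose genes as a whole were above WT. Of its 858 tested genes, 530 were called higher (61.8%, against 29.2% of all genes) and 91 lower, and the chromosome's median was 0.35, where the medians of the other autosomes and the X chromosome ran from -0.12 to 0.02. The Y chromosome, with 12 tested genes, had a median of -0.49, with 7 genes called lower and 1 higher. At days 0, 2 and 4 the median of chromosome 8 was 0.01, 0.10 and 0.31. The KO, which shares the WT libraries with this comparison, showed a median of 0.35 on chromosome 8 against WT at day 6, and Dex against no Dex, which shares the Dex libraries, a median of 0.04. Genes of the lists and the naming rule on chromosome 8 included Slc38a8, Wfdc1, Tubb3, Nkd1, Sfrp1, Irx3 and Sox1, and not all of them are listed here. The part of the shift of chromosome 8 in the differences of its genes was not tested. The difference was 0.86 for Sfrp1 and 3.53 for Wfdc1, beside 0.35 for the median of the chromosome. Col4a1 and Efnb2, which were lower than WT, lie on the same chromosome.

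**Figure D4:**
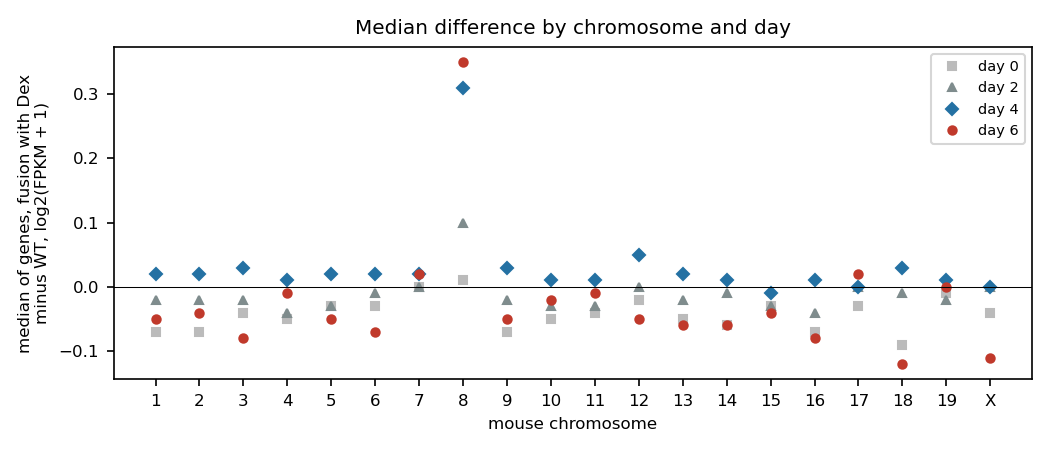
Median difference between Dex cultures and WT over the tested genes of each autosome and the X chromosome at days 0, 2, 4 and 6, on the log2(FPKM + 1) scale. The autosomes and X are shown, and among them chromosome 8 stands apart at days 4 and 6, with medians of 0.31 and 0.35. The labels list no Dex at day 0.

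Several eye field genes were higher than WT in Dex cultures at day 4 and lower at day 6. Whether the difference between Dex and WT had changed since day 4 was tested as an interaction, which called 8468 genes (52.0%), 3739 of them moving up relative to WT (23.0%) and 4729 moving down (29.1%). Of the 14 eye field genes, 10 moved down and 4 up. At day 4, Rax was read at 30.7 and 31.5 FPKM in WT and 74.2 and 74.8 in Dex cultures, so that Dex cultures were ahead. By day 6 WT had risen to a mean of 118 FPKM while Dex organoids stood at 54.7, and the change of the difference was -2.33 ± 0.09 (limma, adjusted p = 1.43e-13). Six3 gave 73.8 and 74.3 FPKM in WT against 128 and 126 in Dex cultures at day 4, Lhx2 14.4 and 12.97 against 65.98 and 68.8, and Pax6 5.96 and 4.19 against 41.5 and 39.6. All 3 were ahead of WT at day 4, without overlap.

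Several other genes below WT at day 6 were not below it at day 4. Fzd5 was read at 35.2 and 36.2 FPKM in WT against 41.5 and 41.6 in Dex cultures at day 4, and Hesx1, not called on that day (adjusted p = 0.736), at 153 and 158 against 159.9 and 165. By day 6 both were far lower in Dex organoids, as given above, while WT stood at a mean of 42.2 FPKM for Fzd5 and 13.9 for Hesx1. Pax2 and Ntn1 were higher in Dex cultures at day 4, Pax2 at 3.20 and 3.39 FPKM in WT against 9.45 and 9.29 and Ntn1 at 6.58 and 6.67 against 27.1 and 27.1. Their interaction values were -4.41 ± 0.07 and -4.46 ± 0.12, which with Dlk1, Vax1 and Fzd5 were the 5 lowest by the naming rule. In contrast, Six6, Vax2 and Aldh1a3 were at a mean of 0.29 FPKM or less in both cultures at day 4. Their levels then rose further in WT, Six6 from 0.27 to 69.7 FPKM in WT and from 0.17 to 6.40 with Dex. Tbx2 and Trpm1, which ended above WT, were low in both cultures at day 4. Tbx2 was at 0.16 and 0.19 FPKM in WT against 0.12 and 0.18 in Dex cultures, and Trpm1 at 0.06 and 0.07 against 0.03 and 0.03. The 5 highest interaction values belonged to Tbx2 (4.17), C1qtnf5 (4.09), Trpm1 (3.86), Folr1 (3.79) and Wfdc1 (3.68). At day 6 Wfdc1 had a mean of 1.78 FPKM in WT and 31.2 in Dex organoids. It was higher still without Dex (66.6) and in the KO (94.6). Of the 11 tested pigment genes, 7 moved up between the days and 1 down. The endoderm gene Sox17 was lower at day 4 already, being read at 10.00 and 10.7 FPKM in WT and 2.87 and 3.03 in Dex cultures.

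**Figure D5:**
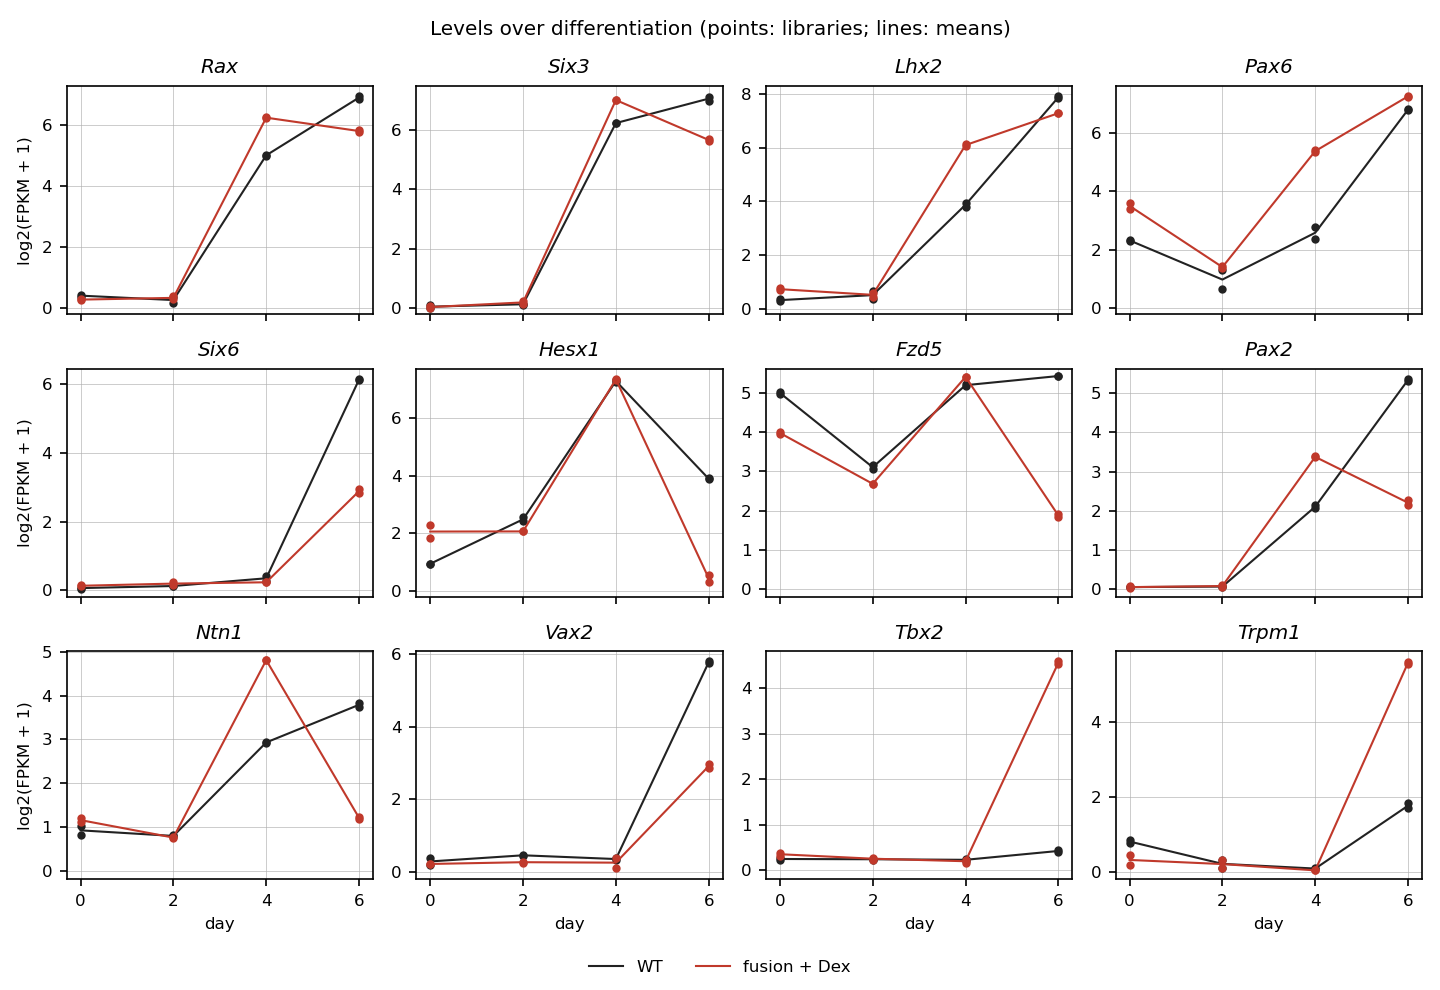
Levels of 12 eye and forebrain genes in WT (black) and Dex cultures (red) at days 0, 2, 4 and 6 as log2(FPKM + 1), with a point for each of 2 libraries and a line through the means. Rax, Six3, Lhx2, Pax6, Pax2 and Ntn1 are higher in Dex cultures at day 4, all but Pax6 of these are lower at day 6, and Tbx2 and Trpm1 separate at day 6. The labels list no Dex at day 0.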

How the data were processed

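The deposited table held FPKM per gene, computed by the authors, for 55492 rows in 32 libraries. The submitters' processing notes name STAR, Cuffdiff and mm10 without their roles, and strand use in counting is not given in the sources used here. Positions come from GENCODE M21 on GRCm38, which matched 99.5% of rows. In R 4.3.3, limma 3.58.1 fitted log2(FPKM + 1) of all 32 libraries, with 16 group means, a mean-variance trend and 16 residual degrees of freedom, for genes with at least 1 FPKM in at least 2 libraries. Adjusted p-values are Benjamini-Hochberg over 16276 genes, two-sided, and the procedure was tested on simulated data. Depth was estimated at 27.0 to 52.8 M fragments, with 82.0% to 86.8% of low values within 0.2 of a whole fragment (40.0% by chance), as deposited. A count of 3 fragments on 2 kb then equals 0.033 to 0.065 FPKM, counting error only. Duplicates exceeded counting noise 1.91-fold in WT and 1.82-fold in Dex organoids (median of squared differences). Each library was counted as a sample, although this excess does not show that the 2 came from separate cultures. The naming rule took called protein-coding genes with non-overlapping libraries and at least 5 FPKM in the higher group, namely the 12 largest log2 differences, the 5 largest FPKM differences and the 5 largest day 6 against day 4 interactions in each direction, beside list members, Mettl3, Nr3c1 and the reporter. Members and lists were chosen with earlier results of these data known. Alternatives were other pseudocounts, filters, scaling, fits, a replicate block and left-out libraries. Gm21748, on the Y chromosome, has near-identical copies and is uncertain. Some genes are not reported here.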

Additional observations from a re-analysis of the deposited data

Results flagged for a closer look

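The difference between Dex and WT organoids at day 6 departed from that at day 4 for 8468 genes by the interaction test (limma, adjusted p under 0.05). The changes of the difference, on the log2(FPKM + 1) scale, were as follows for the genes named above. Among genes that moved up relative to WT, Tbx2 changed by 4.17, C1qtnf5 by 4.09, Trpm1 by 3.86, Folr1 by 3.79, Wfdc1 by 3.68 and H19 by 2.68. Among genes that moved down, the change was -5.58 for Dlk1, -5.28 for Vax1, -4.46 for Ntn1, -4.41 for Pax2 and -3.77 for Fzd5. It was -3.51 for Hesx1, -3.46 for Mest, -3.14 for Six6 and -2.81 for Lhx2. For Pax6 it was -2.34, for Rax -2.33, for Six3 -2.16 and for the green fluorescent reporter of Rax -1.56. Both libraries of each group lay on the same side at day 6 for every one of these 19 genes. The naming rule asked for this of the genes it named, and 9966 of all 9987 called genes showed it. Groups of 2 libraries allow no test for a library that stands apart from its own group.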

How the results depend on the processing

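The 9987 calls at day 6 became 961 when a difference of at least 1 was also asked, and ranged from 8909 to 9019 with each library left out, where the lone library was assumed to vary like the other groups. The 8468 calls between days 4 and 6 became 876 with the same size rule, and 7800 to 7934 with a library left out. All other alternatives stayed within 1.5 times, with 9358 calls without chromosome 8. The replicate block gave 9966 and 8451 calls and changed no call of a gene checked. No label ties same-numbered libraries of different groups to a shared culture. Their deviations correlated at 0.08 between Dex and WT at day 6 and at -0.09 to 0.13 over 120 pairs of groups. These values cannot show whether such libraries shared a culture or a round of preparation. Between 45.1% and 51.3% of calls were higher over these alternatives, against 47.6%, a comparison that was added after the data were seen, as was the fit of the 8 day 6 libraries alone for single genes and lists. Of 173 genes checked, 161 kept direction and call in every alternative in which they were tested. Sox1, not called, was 0.02 with median-of-ratios rescaling and -0.04 to 0.00 with a library left out, and Dppa3, not called, -0.21 to 0.12. Of 318 list medians 4 changed sign, namely diencephalon -0.01 and hedgehog -0.29 with no filter, hypoxia 0.02 with median-of-ratios rescaling, and m6A, which ran from -0.01 to 0.06 with a library left out. Other list medians kept their sign, but those of many lists moved by over 1.5 times with the filter or the pseudocount, which change the members counted and the weight of low genes, as given above for each list. Medians not given there also moved, with midbrain and hindbrain from 0.22 to between 0.02 and 1.61, diencephalon to 1.44 with a pseudocount of 0.1, optic stalk from -0.48 to -0.24 at a mean of at least 5 FPKM, surface ectoderm from -0.39 to -1.17 with a pseudocount of 0.1, and p53 targets from 0.12 to 0.06 without the first WT library. Calls were lost in at least 1 alternative for 8 genes, namely Pax6, Lhx2, Nr2e1, Bmp4, Mitf, Nr3c1, Mettl14 and the reporter. The cause of these changes was not tested. With 2 libraries per group, precision rests on a spread pooled over 16 groups.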
